A study of Mus musculus with 5 samples.

Results

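The mouse liver was compared across birth, before it at e18.5 (e for embryonic day) and after it at P7 (P for postnatal day), with tables of sites bound by Argonaute (Ago) proteins. These are 2 of the 5 tables of a series that follows liver development from e12.5 to the adult, and they were chosen by their stage label alone. Ago HITS-CLIP fixes Ago to the RNAs it touches with ultraviolet light, pulls Ago down with antibodies and sequences the RNA that stays bound. Both groups were livers of C57BL/6 mice (C57BL/6J in the study's methods) irradiated in 3 rounds at 254 nm and 0.2 J/cm2. The e18.5 liver was precipitated with antibodies to Ago2, and the P7 liver with antibodies to Ago2 and Ago1. Stage and antibody therefore cannot be told apart in any value given here. The labels name 1 sample for each stage and no replicate, so no test was made and differences are given as descriptions. A site in an mRNA was listed for 9897 genes at e18.5 and for 12066 at P7, or 12759 genes in either table.

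MicroRNAs (miRNAs) are small RNAs that guide Ago to mRNAs by pairing, mainly through the seed, bases 2 to 8 counted from the 5′ end of the miRNA. The bound mRNA is usually translated less or degraded sooner, most effectively from sites in the 3′ untranslated region (3′UTR). The fetal liver is the main site of blood formation, and blood-forming cells leave it around birth. The newborn loses the supply of glucose from the placenta and lives on milk, which is rich in fat, and its liver turns to gluconeogenesis and fatty acid oxidation.

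An entry of either table gives 1 seed match in a cluster of overlapping reads and the cluster's maximal read number, which is never below 5. The e18.5 table holds 2 lists one after the other, of 52524 and 33895 clusters, with 10308704 and 2699999 summed reads. The P7 table holds 1 list of 124781 clusters with 16499162 reads. The median cluster had 41 reads in the first list, 8 in the second and 14 at P7, so a low value in the second list rests on few reads. A second library of e18.5 is named in the study's supplement, and no label says if the second list came from it. The lists are not labelled as replicates, but they show how far values at 1 stage can lie apart. The level of a gene region is the sum of the highest reads over its clusters, per 1000000 of the summed cluster reads of the table (rpm), and e18.5 levels are of both lists added up. Clusters in mRNA regions held 30.03% of the reads at e18.5 (32.5% and 20.4% in the lists) and 20.5% at P7. Summed levels of hepatocyte markers were 7302 and 3894 rpm in the lists and 8143 at P7, with all 7 markers listed in each. Red cell markers summed to 53718 and 41672 rpm in the lists and to 18267 at P7, and neutrophil markers to 1043, 1056 and 218. Both blood cell lists were thus lower at P7 than in either e18.5 list. Markers of Kupffer, endothelial and stellate cells summed to 24.4 to 305 rpm and were highest at P7. Vsig4 of the Kupffer cell markers and Clec4g of the endothelial markers were not listed at e18.5 and were listed at P7. Markers of skeletal muscle and exocrine pancreas summed to at most 6.73 rpm at either stage. In whole liver, fewer cells of a type and less RNA per cell cannot be told apart.

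Some of the miRNAs that differed across birth are shown first, since their seeds recur in the target sites described later. The mature sequences are from RefSeq on GRCm38.p6, with the seed in capitals. The first set had the larger share at P7.
let-7c-5p: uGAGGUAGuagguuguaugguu
let-7b-5p: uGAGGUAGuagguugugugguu
miR-194-5p: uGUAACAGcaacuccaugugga
miR-30a-5p: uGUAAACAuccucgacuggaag
miR-30a-3p: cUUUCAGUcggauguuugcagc
miR-125b-5p: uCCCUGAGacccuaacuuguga
miR-351-5p: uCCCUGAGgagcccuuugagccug
The second set had the larger share at e18.5.
miR-142a-3p: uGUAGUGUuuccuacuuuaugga
miR-144-3p: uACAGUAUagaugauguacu
miR-451a: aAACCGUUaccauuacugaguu
miR-223-3p: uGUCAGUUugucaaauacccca
miR-16-5p: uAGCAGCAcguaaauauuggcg
miR-15a-5p: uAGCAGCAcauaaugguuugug
let-7b and let-7c share a seed, as do miR-125b and miR-351, and miR-16 and miR-15a, so sites of either member of a pair cannot be assigned by the seed. miR-30a-5p and miR-30a-3p are the arms of 1 hairpin on chromosome 1, at chr1:23272274-23272295 and chr1:23272315-23272336. miR-144 and miR-451a lie close together on chromosome 11, at chr11:78073047-78073066 and chr11:78073186-78073207.

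The abundance of a miRNA was taken from an integer in the names of its interactions, which the tables leave unexplained and which was read as its read count, with sums of 5793004 and 1988480 in the e18.5 lists and 12048589 at P7. Of 207 miRNAs with a mean of at least 100 rpm of miRNA reads, 43 had a share at least 2-fold higher at P7 (20.8%) and 51 a share at least 2-fold lower (24.6%). The former made up 11.2% of the miRNA reads at e18.5 and 42.8% at P7, and the latter 53.4% and 17.0%. Against each e18.5 list taken alone, 33 were higher and 27 lower.

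let-7c-5p, of the family known for restraining proliferation, made up 2.14% and 3.50% of miRNA reads in the e18.5 lists and 10.9% at P7, and moved from the 8th to the 2nd rank. miR-194-5p, a miRNA of hepatocytes and gut epithelium, made up 1.99%, 3.81% and 9.29%. miR-30a-5p made up 1.17%, 1.35% and 4.64%. For all 3 the P7 share lay above both e18.5 lists by more than the lists lay apart. The other arm of the miR-30a hairpin had the largest ratio of the 10 higher miRNAs named. miR-30a-3p made up 0.134% and 0.200% at e18.5 and 2.26% at P7, a log2 difference of 3.91. Its shares at e12.5, e15.5 and in the adult were 0.139%, 0.218% and 0.136%, so P7 stood apart from every other stage of the series. miR-125b-5p was higher too, at 0.378%, 0.604% and 2.04%, and miR-351-5p, with the same seed, at 0.345%, 0.486% and 1.098%. miR-186-5p was the exception among the 10 higher miRNAs, since its share of 1.003% in the second e18.5 list lay within 2-fold of the 1.41% at P7. miR-122-5p, the main miRNA of hepatocytes, made up 9.13%, 9.41% and 12.3%, a log2 difference of 0.42, and was not among those that differed 2-fold.

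miR-142a-3p, made in blood cells, had the highest share of all at e18.5, 21.7% and 30.2% in the lists, against 8.88% at P7. miR-144-3p and miR-451a, made together in red cell precursors, were also lower at P7. miR-144-3p made up 10.8%, 6.15% and 1.97%. miR-451a made up 3.33% and 0.716% in the lists and 0.299% at P7, so the lists differed from each other by more than the second list differed from P7. miR-223-3p, made in neutrophils and their precursors, made up 2.52%, 3.88% and 0.898%. miR-16-5p made up 11.01% and 4.33% in the lists and 3.51% at P7, and was at least 2-fold lower against the first list only. miR-27a-3p, at 0.540%, 0.188% and 0.210%, was lower at P7 than in the first list and slightly higher than in the second.

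**Figure D1:**
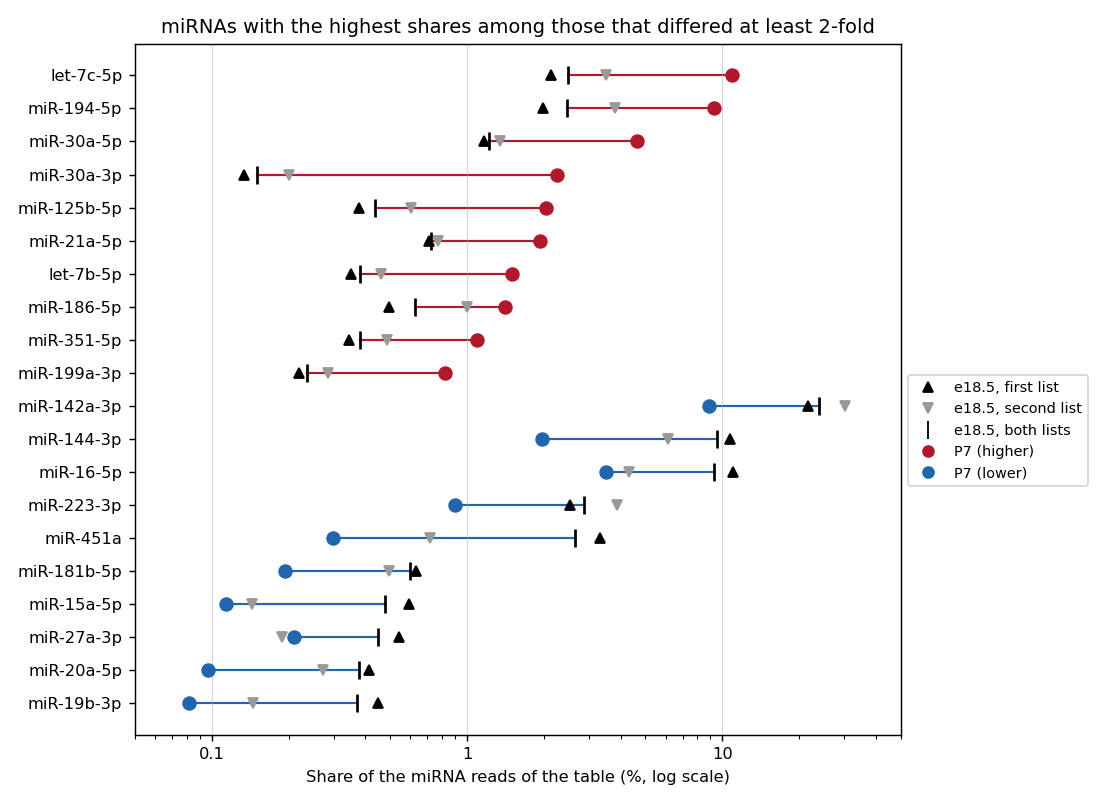
Share of the miRNA reads of each table (percent, log scale) for the 10 miRNAs of highest share among those at least 2-fold higher at P7 (red) and the 10 among those at least 2-fold lower (blue). Triangles are the 2 e18.5 lists and the bar both lists added up. The 10 red points lie to the right of both triangles, and the blue points lie to the left of both except for miR-27a-3p.

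Groups of miRNAs were counted against the 20.8% higher and 24.6% lower of all tested miRNAs. The blood cell miRNAs summed to 39.1% and 41.8% in the e18.5 lists and 13.04% at P7, with 6 of 9 tested members lower, 5 of them against each list. The 2 members that were higher were miR-146a-5p, at 0.108% and 0.445%, and miR-150-5p, at 0.010% and 0.034%. The hepatocyte miRNAs summed to 13.4%, 15.6% and 25.6%, with 3 of 9 members higher and none lower. The let-7 family summed to 5.02%, 7.74% and 15.3%, yet only let-7b and let-7c of its 9 tested members differed 2-fold, a share close to that of all tested miRNAs. The miR-17-92 cluster and its paralogs, known for their part in proliferation and blood cell development, had 7 of 10 members lower, 5 of them against each list, and summed to 2.49% at e18.5 and 1.08% at P7. The imprinted Dlk1-Dio3 miRNAs had 7 of 18 members lower, 3 of them against each list, while their sum was 5.66% at e18.5 and 4.84% at P7. They summed to 0.051% in the adult. In the miR-15/16 family miR-195a-5p stood against its relatives, at 0.024% and 0.136%, although miR-16-5p and miR-15a-5p were lower. miR-15a-5p made up 0.592% and 0.143% in the lists and 0.114% at P7, so it was at least 2-fold lower against the first list only.

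Levels on mRNAs were compared for 4418 gene regions with a mean of at least 10 rpm, a gene region being the coding sequence (CDS), 3′UTR or 5′UTR of 1 gene. At least 4-fold higher levels at P7 were found for 180 (4.07%) and at least 4-fold lower levels for 631 (14.3%). The median log2 difference was -0.69, and it was -0.84 against the first e18.5 list alone but 0.37 against the second. Against the second list alone 337 of 3168 regions were higher and 164 lower, so the side with more regions turned with the list. With the median ratio set to 1 instead, 362 were higher (8.19%) and 238 lower (5.39%). All 180 of the former and 238 of the latter lay past 4-fold in both scalings. Between the e18.5 lists themselves 25.8% of the tested regions differed at least 4-fold, mostly with lower levels in the second list. At least 2-fold against each list as well were 163 of the 180 and 356 of the 631. The 3′UTR had 45 of 1562 regions higher (2.88%) and 244 lower (15.6%), the CDS 117 of 2697 (4.34%) and 343 (12.7%), and the 5′UTR 18 of 159 (11.3%) and 44 (27.7%). With the median ratio set to 1 the shares higher and lower were 6.98% and 5.57% in the 3′UTR, 8.45% and 4.63% in the CDS, and 15.7% and 16.4% in the 5′UTR. Scaled to whole-library read totals, 261 regions were higher and 311 lower with the first e18.5 library counted, and 1872 and 9 with both. The latter takes the second list as the second library, which no label says. Whether a moderately lower gene region lies past 4-fold thus depends on the scaling. Among the named lower regions the side turned only with the totals of both libraries. Values are given below per summed reads of the table. For the lower 3′UTR and CDS regions named by level, the log2 difference with the median ratio set to 1 is given in brackets. For members of gene lists and 5′UTRs it is not given.

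**Figure D2:**
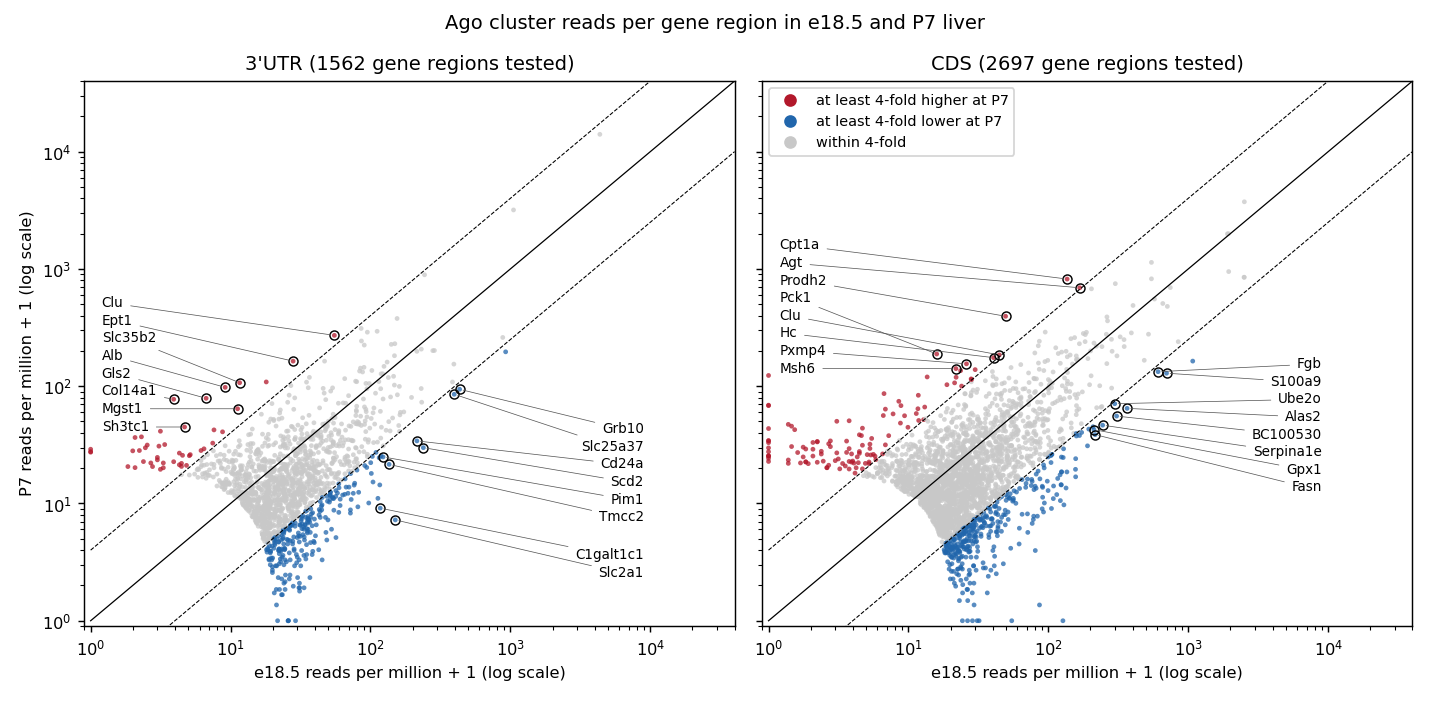
Levels at e18.5 (x axis) and P7 (y axis), in rpm with 1 added on log axes, of the 1562 tested 3′UTRs (left) and 2697 tested coding sequences (right), with the solid line at equal levels, the dashed lines at 4-fold, and circles around the named genes. Regions at least 4-fold higher at P7 (red, 45 and 117) lie above the upper dashed line and those at least 4-fold lower (blue, 244 and 343) below the other, and most points lie under the solid line.

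The 8 coding sequences named as higher at P7 were 3 of metabolic enzymes, 3 of secreted proteins, a peroxisomal protein and a DNA repair protein. All regions named here and in the next paragraphs were chosen to lie at least 2-fold from each e18.5 list on the same side, so that P7 lies outside both lists follows from the choice. Cpt1a, an enzyme that controls the entry of fatty acids into mitochondria, had 156 and 55.2 rpm in the e18.5 lists and 819 at P7. Prodh2, an enzyme of hydroxyproline breakdown, had 47.1, 53.3 and 394. Pck1, the enzyme that commits carbon to gluconeogenesis, had 14.9, 14.8 and 187. These 3 had log2 differences of 2.59, 3.00 and 3.56. Pck1 had 0.223 rpm at e12.5, was not listed at e15.5 and had 137 in the adult. Agt, the precursor of angiotensin, had 174, 137 and 690 rpm. Hc, complement component C5, had 40.9, 34.4 and 174. Pxmp4, a peroxisomal membrane protein, had 25.1, 24.4 and 154. The lists lay close together for Prodh2, Pck1, Agt, Hc and Pxmp4. For Cpt1a the second list differed from the first by -1.48 on the log2 scale. That is wider than the median gap of 1.12 over tested regions found in both lists. Counting only sites of the 443 miRNAs in both e18.5 lists and P7, a choice made after seeing the data, the log2 difference of Agt went from 2.04 to 1.79, within 4-fold. Clusters that also carry a site assigned to another region of the gene held 91.4% of the P7 reads of Pxmp4. Clu, a secreted chaperone, had 52.3, 10.4 and 184, with 82.9% of its P7 reads in such clusters. Msh6, a DNA mismatch repair protein and not a liver enzyme, had 18.6, 29.3 and 140 rpm. It had 37.9, 26.1 and 10.4 at e12.5, e15.5 and in the adult, so its P7 level stood above all 4 other stages.

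In 3′UTRs Slc35b2, a Golgi transporter of activated sulfate, had 6.40 and 26.7 rpm at e18.5 and 106 at P7, but 6.23 in the adult. Alb, serum albumin, had 8.54, 6.67 and 96.8. Gls2, the glutaminase of liver, had 7.18 in the first list, was not listed in the second and had 77.8 at P7 and 158 in the adult. All reads of Gls2 at both stages were in clusters that carry sites assigned to another region too. Much of the Alb and Gls2 levels at P7 came from clusters whose top site is assigned to a miRNA with 15 and 28 reads at P7 and none at e18.5. With only the 443 common miRNAs the log2 difference went from 3.42 to 2.16 for Alb and from 3.56 to 0.52 for Gls2, which was then within 4-fold. Col14a1, a fibril-associated collagen, was not listed in the first list, had 14.1 in the second and 76.4 at P7. Mgst1, a microsomal glutathione transferase, had 9.70, 12.2 and 63.2, and Ept1, a phospholipid-synthesising ethanolamine phosphotransferase, had 16.4, 67.4 and 163. Clu had 66.7, 6.30 and 270, and Sh3tc1 had 4.07, 2.22 and 43.9. The 3′UTR and CDS of Clu share their tallest cluster, 132 rpm at P7, so they are not independent. Clusters assigned to another region as well held 93.8% of the P7 reads of Col14a1, 90.4% of Mgst1 and 100% of Sh3tc1. The lists differed by more than 4-fold for Clu with 1 rpm added, and Gls2 and Col14a1 were each missing from 1 list.

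Several of these levels came from 1 cluster. The tallest cluster held 89.8% of the P7 reads of Cpt1a, 88.2% for Prodh2, 93.1% for Msh6, 91.4% for Pxmp4, 91.6% for Ept1 and 95.9% for Slc35b2. At least 80% of the P7 reads lay in 1 cluster for 52 of the 180 higher regions (28.9%), against 479 of all 4401 tested regions listed at P7 (10.9%). For the 631 lower regions the same share of first-list reads was found in 106 (16.8%), against 907 of 4331 (20.9%). The sites with most reads in Cpt1a, Msh6, Slc35b2 and Ept1 are shown as examples that hold most of the P7 level, and that of Pck1, with 29.1% of its P7 reads, for its miR-30a-5p seed match. Prodh2, Pxmp4, Col14a1 and Gls2 also had most of their P7 level in 1 cluster and are not shown. Their top sites were assigned to miR-431-5p, miR-1843b-5p, miR-378a-5p and miR-7021-5p. The printed sites are given in mm10 coordinates, 5′ to 3′ on the mRNA strand, with capitals for the bases paired to the miRNA seed and, where the site has one, for the final A opposite base 1 of the miRNA.
Cpt1a CDS, miR-122-5p: tgcctgtcagggctgCACTCCt
Msh6 CDS, miR-122-5p: gaagaccggactcatCACTCCA
Pck1 CDS, miR-30a-5p: actagcgatgggggTGTTTACt
Slc35b2 3′UTR, miR-30a-5p: gctgggaagagaatTGTTTACA
Ept1 3′UTR, miR-10a-5p: gccagtgactccagaACAGGGTA
The Cpt1a site (chr19:3349295-3349316, plus strand) was listed with 985 and 126 reads in the e18.5 lists and 12135 at P7, or 95.6, 46.7 and 735 rpm. The Msh6 site (chr17:87986575-87986596, plus strand) had 192, 53 and 2155 reads. Both pair with miR-122-5p, whose own share differed by 0.42 on the log2 scale. The Pck1 site (chr2:173157037-173157058, plus strand) was not listed in the first list and had 5 and 898 reads in the others. The Slc35b2 site (chr17:45567491-45567512, plus strand), with a conservation score of 0.997 out of a possible 1, had 66, 72 and 1678 reads. The Ept1 site (chr5:30267463-30267485, plus strand) was listed with 2457 reads at P7 and was in neither e18.5 list, although other sites of the Ept1 3′UTR were. The share of miR-10a-5p was 0.049% at e18.5 and 0.231% at P7. The number of reads belongs to the cluster, so another miRNA with a site in the same cluster shares it. The miRNA printed is the one with the highest read count among those with a site there.

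Genes of blood cells and of hepatocytes were both among the named lower regions. Among coding sequences S100a9, a calcium-binding protein of neutrophils, had 712 and 645 rpm in the e18.5 lists and 128 at P7, a log2 difference of -2.44 (-1.72). Alas2, the first enzyme of heme synthesis in red cells, had 411, 187 and 63.7, a difference of -2.50 (-1.79). Ube2o, a ubiquitin-conjugating enzyme of reticulocytes, had 314, 232 and 69.9, a difference of -2.07 (-1.36). Gpx1, a glutathione peroxidase, had 209, 219 and 41.6, a difference of -2.31 (-1.60), with 72.5% of its e18.5 reads in clusters also assigned to another region. BC100530, a member of the stefin A family whose copies are near-identical so that its assignment is uncertain, had 258, 491 and 54.6, a difference of -2.47 (-1.76), and of -4.74 with the common miRNAs only. Fgb, the beta chain of fibrinogen, had 684, 313 and 132, a difference of -2.19 (-1.48), but 513 in the adult. Fasn, fatty acid synthase, had 248, 89.6 and 37.6, a difference of -2.48 (-1.77), and 191 in the adult. Serpina1e, of the alpha-1-antitrypsin family of near-identical genes, had 276, 118 and 45.5, a difference of -2.39 (-1.68), and 115 in the adult. For these 3 the P7 level lay below both e18.5 and the adult.

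In 3′UTRs Slc25a37, the mitochondrial iron importer of red cell precursors, had 453, 176 and 84.3 rpm, a difference of -2.22 (-1.51). Cd24a, a surface protein of immature blood cells, had 248, 83.0 and 33.2, a difference of -2.65 (-1.95). Slc2a1, the glucose transporter GLUT1 of fetal and red cells, had 173, 60.4 and 6.24, a difference of -4.38 (-3.71). Scd2, a fatty acid desaturase, had 253, 178 and 28.9, a difference of -3.00 (-2.29). C1galt1c1, a chaperone needed for O-glycosylation, had 120, 104 and 8.12, a difference of -3.69 (-3.01), from 1 listed site whose cluster is also assigned to another region of the gene. These last 3 are the ones of the 16 named lower regions that stayed past 4-fold in both scalings. Grb10, an imprinted adaptor that restrains insulin receptor signalling, had 490, 214 and 93.1, a difference of -2.20 (-1.49), and was not listed in the adult. Pim1, a kinase downstream of cytokine receptors, had 129, 94.4 and 23.9, a difference of -2.30 (-1.60), and Tmcc2 had 154, 60 and 20.5, a difference of -2.66 (-1.96). With the whole-library read totals of both e18.5 libraries, 13 of these 16 regions were not lower but higher at P7, all but Scd2, Slc2a1 and C1galt1c1. That scaling takes the second list as the second library, which no label says. With the total of the first library alone all 16 stayed lower, from -1.60 for Ube2o to -3.87 for Slc2a1. Red cell and neutrophil marker sums were also lower at P7 (53718, 41672 and 18267 rpm, and 1043, 1056 and 218). Alas2 and S100a9 are among those markers, so the sums are not a separate measurement. The part of these cells in the difference was not tested. Of the 16 lower regions the sites of most reads in 5 are shown in the same notation. The printed miRNAs had a share that was lower at P7 (miR-16-5p, miR-223-3p) or slightly higher (miR-122-5p, and miR-26a-5p at 1.77% and 2.32%). They had the highest read count at e18.5 among the miRNAs with a site in the cluster, so their abundance there follows from the choice. Top sites of other lower regions were assigned to miRNAs such as miR-503-3p in S100a9 and miR-1983 in BC100530.
Alas2 CDS, miR-16-5p: acatgcgccaGCTGCTA
Gpx1 CDS, miR-16-5p: atctccagtatgtgTGCTGCTc
C1galt1c1 3′UTR, miR-223-3p: atggttctgagaatgACTGACA
Fgb CDS, miR-122-5p: aatggaatactgccgCACTCCA
Grb10 3′UTR, miR-26a-5p: agtccttcccattaTACTTGAA
The Alas2 site (chrX:150565205-150565221, plus strand) had 1462, 182 and 315 reads in the lists and at P7, and the Gpx1 site (chr9:108339304-108339325, plus strand) had 1424, 458 and 326. The C1galt1c1 site (chrX:38631165-38631186, minus strand, conservation score 0.999) had 1234, 280 and 134 reads, or 120, 104 and 8.12 rpm. The Fgb site (chr3:83044913-83044934, minus strand) had 2061, 158 and 675 reads, or 200, 58.5 and 40.9 rpm, while the Cpt1a and Msh6 sites of the same miRNA were higher at P7. The Grb10 site (chr11:11932871-11932892, minus strand) had 1697, 119 and 579 reads. Sites with the same seed match thus lay on both sides.

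**Figure D3:**
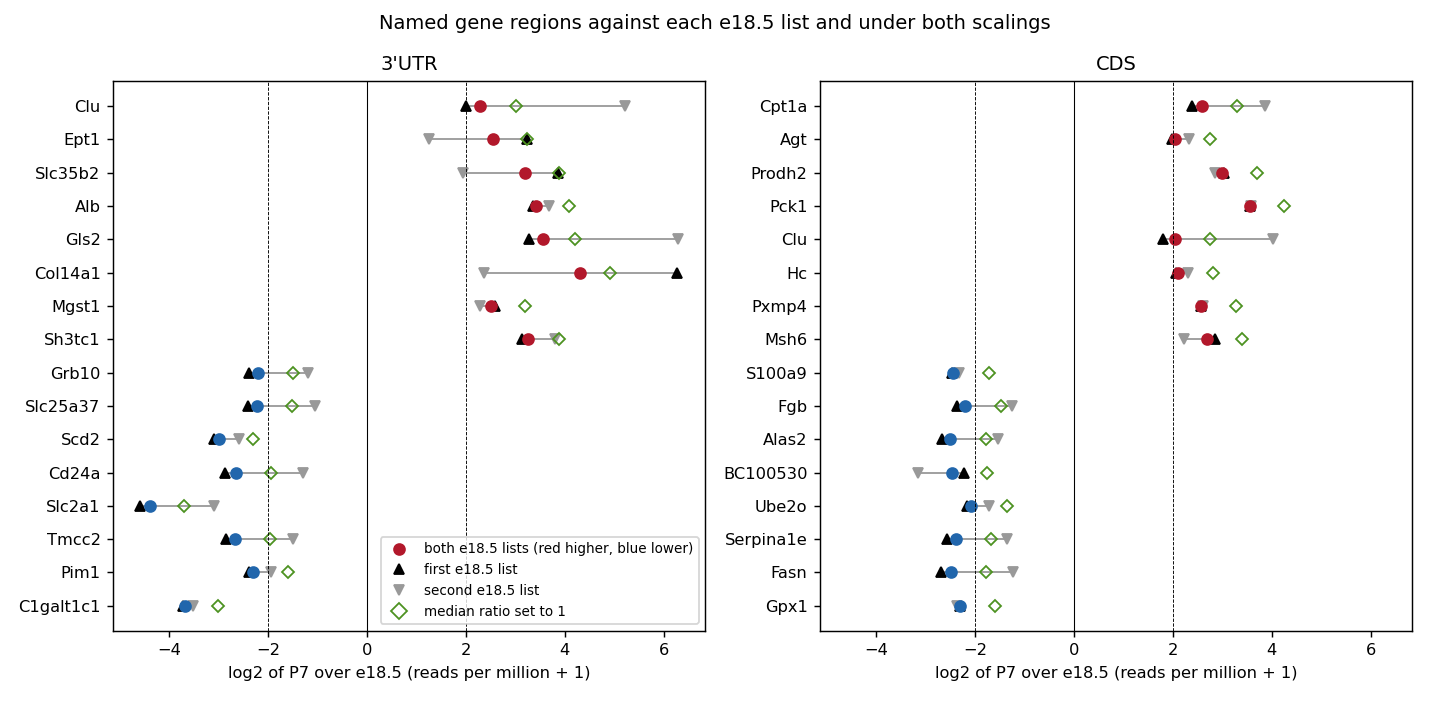
Log2 difference in level, P7 over e18.5 with 1 rpm added, of the 32 named regions in the 3′UTR (left) and the CDS (right), against both e18.5 lists (circles), each list (triangles) and with the median ratio set to 1 (diamonds), with dashed lines at 4-fold. Circles and triangles of a region lie on 1 side of 0 because the regions were chosen so. The triangles lie far apart for Clu, Gls2 and Col14a1, and the diamonds of 13 of the 16 lower regions lie within 4-fold.

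Regions of 1 gene did not always go together. Igf2, the fetal growth factor, had 1719 and 118 rpm in its 5′UTR in the e18.5 lists and 271 at P7, a log2 difference of -2.35, whereas its 3′UTR had 1282 and 171 in the lists and 3182 at P7, a difference of 1.60 against both lists. Its CDS had 161 at e18.5 and 168 at P7. The 5′UTR level at P7 lay between the lists, and the 3′UTR level above them. Igf2 was chosen for this contrast after its values were seen. Agt had 9.51 and 1.85 rpm in its 5′UTR at e18.5 and 344 at P7, 97.5% of it in clusters with a site in another region as well. Gpx1 had 134 and 160 rpm in its 5′UTR at e18.5 and was not listed there at P7. Spata33 was not listed in its 5′UTR at e18.5 and had 164 at P7 from 2 sites, and Hbb-bt, an adult beta globin near-identical to Hbb-bs, had 272, 239 and 29.9. The 5′UTR is the region with the fewest tested members, 159.

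Genes were also counted in lists by function, to be read against the 4.07% higher and 14.3% lower of all tested regions, or 8.19% and 5.39% with the median ratio set to 1. Among 47 tested regions from 26 of 32 red cell genes 22 were lower and none higher, with a median log2 difference of -1.93 against -0.69 over all tested regions. With the median ratio set to 1, 4 were lower and 1 higher. Hbb-bs, a globin gene, had 1072, 358 and 195 rpm in its 3′UTR. Among 19 regions from 11 of 18 white cell genes 11 were lower and none had a positive difference, with a median of -2.02. Lyz2, lysozyme of macrophages and neutrophils, had 132, 87.0 and 23.9 rpm in the CDS, and Prtn3, a protease of neutrophil granules, 94.3, 115 and 11.9. Prtn3 was one of 3 white cell regions also past 4-fold with the median ratio set to 1. These lists share members with the red cell and neutrophil markers summed above, so the lower sums are not a separate measurement. Among 21 regions of cell cycle genes 7 were lower and 1 higher, with a median of -1.67, and with the median ratio set to 1 a single region lay past 4-fold on each side. Rrm1, a subunit of the enzyme that makes deoxyribonucleotides, had 103 rpm at e18.5 and 21.3 at P7 in the CDS, and Ccna2, a cyclin, had 64.5 and 10.97 in the 3′UTR. Myc was lower in the CDS, at a log2 difference of -2.19, but its 5′UTR had 2.23 and 20.1 rpm.

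Of all tested regions 4.07% were higher, or 8.19% with the median ratio set to 1. Of 28 tested regions of genes of gluconeogenesis and amino acid breakdown 7 were higher and none lower, and 17 had a positive difference, with a median log2 difference of 0.44, and with the median ratio set to 1, 8 were higher. Tdo2, which opens the indole ring of tryptophan, had 6.50, 2.22 and 55.2 rpm in the CDS. Bhmt, which remethylates homocysteine, had 22.8, 11.1 and 106. Hgd, of tyrosine breakdown, had 1.77 at e18.5 and 29.5 at P7, and Tat, which begins it, 1.38 and 26.9. Of 30 regions of fatty acid oxidation genes 4 were higher and none lower, and 18 had a positive difference, with a median of 0.46, and 6 were higher with the median ratio set to 1. Besides Cpt1a these included Slc25a20, the carnitine carrier of the inner mitochondrial membrane, not listed in the first list and at 10 in the second and 49.2 at P7 in the CDS, and Cyp4a14, a fatty acid hydroxylase with near-identical relatives, at 6.61 and 41.4 in the 3′UTR. Genes of lipid synthesis had 4 of 19 regions lower and none higher, 3 of them with the median ratio set to 1, but 8 of the 19 had a positive difference and the median was -0.39, above the -0.69 of all tested regions. Elovl6, which lengthens fatty acids, had 50.1, 35.6 and 4.67 rpm in the 3′UTR, and Sqle, of cholesterol synthesis, 26.4 and 1.88 in the 5′UTR. The urea cycle had 1 of 10 regions higher, or 2 with the median ratio set to 1, while 3 were positive and the median was -0.43. The 1 was Otc, the enzyme that makes citrulline, at 3.77 and 27.1 in the 5′UTR.

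The lists that follow have counts to be set against the same shares, 4.07% higher and 14.3% lower, or 8.19% and 5.39% with the median ratio set to 1. Plasma protein genes had 56 tested regions, of which 4 were higher and 2 lower, with a median of 0.06, and 10 were higher and none lower with the median ratio set to 1. Alb had 2515 rpm at e18.5 and 3735 at P7 in the CDS, a log2 difference of 0.57, and Hpx, which binds heme in blood, had 29.0 and 137. Afp, alpha-fetoprotein, had 743 and 692 rpm in the CDS. Of 20 regions of fetal and growth genes 5 were lower and none higher, against 2 and 1 with the median ratio set to 1. Besides Grb10 and the Igf2 5′UTR these were Cdkn1c, an imprinted inhibitor of the cell cycle, at 25.6 and 4.91 in the CDS, Gpc3, a cell surface proteoglycan, at 21.2 and 2.55 in the 5′UTR, and Igf2bp1, an RNA-binding protein of fetal tissue, at 24.8 in the 3′UTR and not listed at P7. Liver transcription factors had none of 14 regions past 4-fold, and 1 higher with the median ratio set to 1. Rxra, the partner of many nuclear receptors, had 89.0, 90.4 and 223 in the 3′UTR, and Cebpa, a regulator of hepatocyte genes, 56.2 and 24.1. Of 15 regions of bile acid and drug metabolism genes 1 was higher, or 2 with the median ratio set to 1. The 1 was Cyp3a11, a member of a group of near-identical genes, at 2.77 and 28.4 in the CDS. Of 22 regions of growth hormone and insulin signalling genes 2 were lower and none higher, but with the median ratio set to 1 none was lower and 3 were higher. Foxo1, a transcription factor held back by insulin, had 21.1 and 4.30 in the 3′UTR. Of 17 regions of the miRNA machinery 2 were lower, a share below the 14.3% of all tested regions, and 1 with the median ratio set to 1, a share close to the 5.39%. Ago4, an Argonaute protein, had 22.1 and 0.67 in the 3′UTR.

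**Figure D4:**
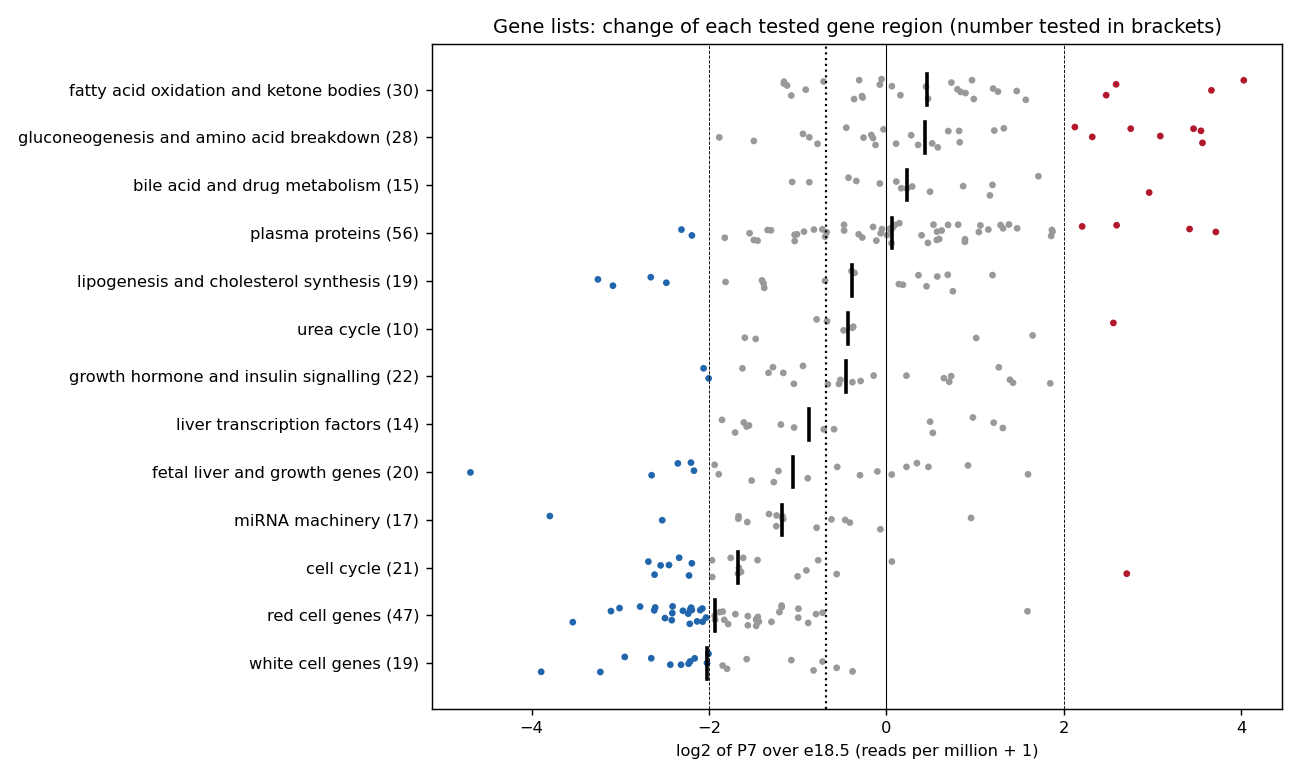
Log2 difference in level, P7 over e18.5, of the tested regions in each list of genes, each point being 1 gene region and the bar the median, with the dotted line at the median of all tested regions, dashed lines at 4-fold and points past 4-fold in red or blue. Lists of blood cell and cell cycle genes have medians of -1.67 to -2.02, below the -0.69 of all tested regions, and lists of gluconeogenesis and fatty acid oxidation genes medians of 0.44 and 0.46.

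The make-up of the clusters was compared as well. CDS clusters were 35.0% of all clusters at e18.5 (Wilson 95% interval 34.6 to 35.3) and 42.0% at P7 (41.8 to 42.3), and 3′UTR clusters were 21.0% (20.7 to 21.3) and 23.7% (23.5 to 24.0). These intervals cover counting error only. The e18.5 lists gave 29.1% and 46.3% for the CDS and 17.8% and 26.6% for the 3′UTR, so P7 lay between them and the difference between stages was smaller than that between the lists. As a share of reads, the CDS held 22.6% at e18.5 and 14.2% at P7, and the 3′UTR 16.7% and 10.2%, which is the opposite direction. Of 16150 3′UTR clusters at e18.5, 5828 (36.1%, 35.3 to 36.8) had an identical listed site at P7. Of 29603 at P7, 5766 (19.5%, 19.03 to 19.9) had one at e18.5. The lists at e18.5 shared 23.0% and 23.9% of their 3′UTR clusters. Clusters of high reads were shared more often. At e18.5 the shares were 48.8% of clusters with at least 85 reads and 28.1% of those with at most 8, and at P7 40.8% with at least 24 reads and 10.002% with at most 9. Shared clusters also had the higher median conservation score, 0.875 against 0.506 for the unshared at e18.5, and 0.936 against 0.502 at P7.

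The share of 3′UTR clusters with a site of a given seed family was compared for families with at least 50 such clusters. Of 639 families 237 had a share at least 1.5-fold larger at P7 (37.1%) and 57 a smaller one (8.92%), but 158 were listed at P7 only and 40 at e18.5 only, since sites were listed only for miRNAs found in that list. When restricted to the 443 miRNAs in both e18.5 lists and P7, a choice made after seeing the data, 14 of 347 families were larger (4.03%) and 10 smaller (2.88%), and the shares that follow are of these. The let-7 family had sites in 1.08% of 3′UTR clusters at e18.5 (0.929 to 1.26), 1.15% in each list, and 1.95% at P7 (1.80 to 2.13). The miR-126a-3p family, of endothelial cells, had 0.143% and 0.275%, from 22 and 73 clusters. The miR-451a family was smaller at P7, at 0.664% (0.547 to 0.805) and 0.373% (0.306 to 0.454). Several other miRNAs that differed in abundance did not differ 1.5-fold in sites. miR-142a-3p had 1.43% and 0.968%, miR-144-3p 2.57% and 2.08%, miR-194-5p 1.13% and 1.34%, and miR-30a-5p 2.08% and 2.09%. miR-30a-3p, whose share of miRNA reads was so much higher at P7, had 2.23% and 1.98%. Across all 347 families the log2 difference in site share and in miRNA share had r = -0.03 and rho = -0.03 for the 3′UTR, with 177 of the same sign, and r = 0.08 and rho = 0.07 for the CDS. Across the 57 families with at least 1000 rpm of miRNA reads the values were r = 0.24 and rho = 0.24 for the 3′UTR and r = 0.43 and rho = 0.39 for the CDS. These are across families that share libraries and are given without a test.

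**Figure D5:**
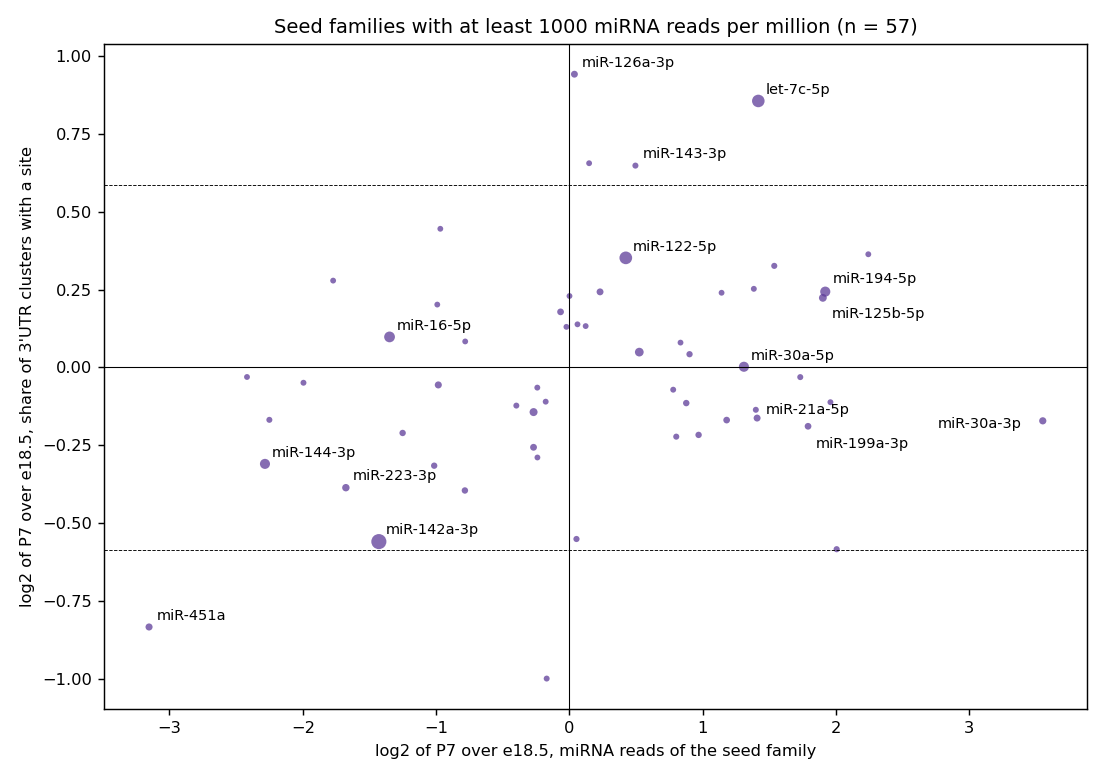
Log2 difference in the share of 3′UTR clusters with a site of a seed family (y axis) against the log2 difference in the share of miRNA reads (x axis), P7 over e18.5, for the 57 families with a mean of at least 1000 rpm of miRNA reads, with larger points for more abundant families and dashed lines at 1.5-fold. The points of let-7 and miR-451a lie toward the upper right and the lower left, while miR-30a-3p lies farthest to the right at -0.17 on the y axis.

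Single sites of a family did not all follow its share. Sites of most reads for the miR-126a-3p, let-7 and miR-451a families, and 2 others picked after their values were seen (Tnfaip2 and Actb), show this in the notation used above. Other families that differed are not printed.
Sgpp1 3′UTR, miR-126a-3p: gcttagaaaagaatCGGTACGc
Hba-a1 3′UTR, let-7c-5p: tctcccttgcacctgTACCTCt
Cfb 3′UTR, miR-451a: tgaggtggtcactccACGGTTc
Tnfaip2 3′UTR, miR-142a-3p: ccctggaggaaatcatCACTACt
Actb 3′UTR, miR-194-5p: tgcttctaggcggaCTGTTACt
The Sgpp1 site (chr12:75714486-75714507, minus strand) had 11.6, 12.96 and 30.5 rpm in the lists and at P7, higher like its family. The site in Hba-a1, a near-identical globin copy (chr11:32284434-32284455, plus strand), had 1356, 366 and 148 rpm, lower although the let-7 family was larger. The Cfb site (chr17:34857053-34857074, minus strand), in the gene of complement factor B, had 136, 64.4 and 218, higher although the miR-451a family was smaller. Of the smaller families not printed, the top sites in Msl2 (miR-410-3p) and Cd24a (miR-3074-1-3p) were not listed at P7, lower like their families. That in Pkn2 (miR-374b-5p) was higher, and that in Apof (miR-1981-3p) lay between the lists. The Tnfaip2 site (chr12:111450732-111450754, plus strand) had 89.3, 32.2 and 7.09, lower like the share of miR-142a-3p. A miR-144-3p site beside it was listed with the same reads. The Actb site (chr5:142903785-142903806, minus strand) had 40.4, 64.1 and 53.7, so P7 lay between the lists. Of the families that differed, 10 of the 14 larger had at least 4 G or C among the 7 seed bases (71.4%), against 1 of the 10 smaller and 171 of all 347 (49.3%).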

How the data were processed

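Ago-bound RNA of mouse liver was read from 1 deposited table per stage. The authors mapped reads with Bowtie, and the submitters' processing notes name mm10 and mm9. They grouped overlapping reads into clusters and searched them for seed matches. The deposited read column is a signal, the highest whole-number coverage of a cluster, not scaled to library size, and the lowest is 5. The conservation value and free energy of each site were deposited as scores. The sums of cluster reads were 10308704 and 2699999 for the e18.5 lists and 16499162 at P7. Clusters without a site are not in the tables, so these sums are not the depth of the libraries. Whole-library read totals given by the study served as an alternative.

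Levels were scaled per 1000000 of those sums (rpm) and compared as log2 with 1 rpm added. Gene regions had to have a mean of at least 10 rpm and were called past 4-fold, miRNAs at least 100 rpm and past 2-fold, and seed families at least 50 clusters and past 1.5-fold. Named were, for the 3′UTR and the CDS in each direction, the 8 called regions of highest level that also lay 2-fold from each e18.5 list, the 10 called miRNAs of highest share, and the highest called members of each list. The members and lists were chosen with earlier results of these data known. The calculation of the calls was checked on simulated counts that held counting error only. Such counts leave out differences like those between the e18.5 lists, so they do not show how reliable the calls are. Intervals are Wilson 95%. Replicates are not given in the labels (the methods mention 2 for Ago2). Scalings, minima, folds and lists were varied as alternatives. Python 3.11.15, numpy 2.4.6, pandas 2.3.3, scipy 1.17.1 and matplotlib 3.10.9 were used.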

Additional observations from a re-analysis of the deposited data

How the results depend on the processing

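No paired analysis was possible because the labels give each stage 1 sample and no replicate number. Depth, antibody and stage limit every value, and the second e18.5 list, with a median of 8 reads a cluster, limits low levels. The counts of gene regions higher and lower at P7, 180 and 631, were 107 and 262 with 5 rpm added, 44 and 151 with a mean of at least 30, 2014 and 2621 with no minimum, 362 and 238 with the median ratio set to 1, 337 and 164 with the second e18.5 list alone, 484 and 1776 at 2-fold, 302 and 309 scaled to reads in mRNA regions (chosen after seeing the data), and 1872 and 9 with the whole-library read totals of both e18.5 libraries. By the tallest cluster 126 were higher and 307 lower, of only 1600 regions tested. The lower count alone was 311 with the totals of the first e18.5 library, 997 with the first list alone and 356 when 2-fold against each list was also asked. The cause was not tested.

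With the totals of both e18.5 libraries the log2 difference turned positive for Grb10 (0.64), Slc25a37 (0.62), Cd24a (0.17), Tmcc2 (0.14), Pim1 (0.49), S100a9 (0.41), Fgb (0.65), Alas2 (0.34), BC100530 (0.37), Ube2o (0.76), Serpina1e (0.43), Fasn (0.34) and Gpx1 (0.51). These were the only reversals, 13 of 384 values for the 32 named regions, and none was found with the total of the first e18.5 library. miR-27a-3p was 0.16 with the second list alone, the 1 reversal among 80 values for 20 miRNAs.

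The CDS share of clusters was 7.06 percentage points larger at P7, 12.9 with the first list, -4.22 with the second, 12.49 with at least 10 reads, 2.08 of mRNA clusters, -8.40 of reads and 5.93 for sites of 7 bases or more. The 3′UTR share was 2.74 points larger, and 5.93, -2.91, 5.19, -1.09, -6.51 and 1.90 in the same order.

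The counts of miRNAs, 43 higher and 51 lower, were 23 and 13 with at least 1000 rpm, 76 and 119 with at least 10, and 14 and 23 at 4-fold, and the lower count was 31 with the second list and 27 when each list was asked for (chosen after seeing the data). The counts of families, 237 and 57, were 359 and 88 by reads, 118 and 8 with at least 200 clusters, and 14 and 10 for the common miRNAs.

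The share of e18.5 3′UTR clusters found at P7, 36.1%, was 37.2% with 1 base of overlap, 35.1% with an overlap of 50% of the shorter span, 35.3% with at least 10 reads, 44.2% with the second list and 40.1% for CDS clusters. The share of P7 clusters found at e18.5, 19.5%, was 20.1%, 18.9%, 16.9%, 13.4% and 20.2% in the same order, 11.5% with the first list and 21.0% for the common miRNAs.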
